A study of Scyliorhinus canicula with 6 samples.

Results

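The 150 contig groups with the longest contigs were described, out of 269971 contig groups in a ventricle transcriptome of the small-spotted catshark (Scyliorhinus canicula), an egg-laying shark. A contig is a transcript sequence rebuilt from reads, and a contig group is the set of contigs that the assembler treats as 1 gene. Groups were ranked by the length of their longest contig. RNA was sequenced from the ventricle of juveniles that had developed as embryos at 15 °C or at 20 °C and had then, after hatching, lived at a shared 15 °C for about 5 months. Each temperature had 3 libraries, for which the labels' protocols name a stranded poly(A) kit and total RNA. No label says that the libraries of a temperature were from separate animals or clutches, so p-values measure the spread between these libraries, which may be technical. Library totals were lowest in 15 °C replicate 3, with 2397973 estimated counts, and highest in 15 °C replicate 2, with 12954558.

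The longest contig of these groups measured 9019 to 41148 bases, with a median of 10212 bases against 342 bases over all contig groups. Of the 150, 87 reached 10000 bases, 17 reached 15000 bases and 4 reached 20000 bases. The shortest member, TRINITY_DN136941_c5_g1, had a contig of 9019 bases and a mean of 0.351 TPM, a level in which counts are scaled for length and depth. The first group outside, TRINITY_DN138854_c0_g1, had a contig of 9011 bases and a mean of 1.13 TPM. The tables pair no contig with a gene name, and the assembled sequences were not used here. No member could therefore be given a gene, a role or a sequence, and the ventricle label could not be checked against markers.

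Heart muscle is known for some of the longest messenger RNAs of an animal. They encode titin, the elastic protein that spans the contractile unit, obscurin, which ties that unit to the calcium store, and the ryanodine receptor, the channel that releases calcium for each beat. A long messenger yields more fragments per molecule than a short one, so counts overstate long transcripts relative to short ones and TPM corrects for it. Whether any member encodes one of these proteins is not given in the sources used here.

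By TPM, most of the giant contig groups stood at a low level, and a few carried most of their reads. The 150 groups held 0.562%, 0.873% and 0.905% of the estimated counts in 15 °C replicates 1, 2 and 3, and 0.618%, 1.02% and 0.590% in the 20 °C replicates. Per length the share was smaller, with means of 0.170% ± 0.0462 of all TPM in the 15 °C libraries and 0.152% ± 0.0211 in the 20 °C libraries (SD, n = 3 each). The ranges of the temperatures overlapped, and the difference of -0.0179 percentage points was smaller than either SD. It was 0.00277 without 15 °C replicate 3 and -0.0429 without 15 °C replicate 1. Much of this TPM share came from TRINITY_DN139326_c1_g1, through a contig of only 1420 bases. Without that group the mean shares were 0.0727% at 15 °C and 0.0636% at 20 °C. Contigs at least as long as the shortest member's held 0.0414% and 0.0362%. The median member had a mean of 1.57 TPM and 80.0 counts per library. In the 31870 contig groups that passed the low-count filter the medians were 4.84 TPM and 29.7 counts. Those groups had a median longest contig of 1500 bases, and a short group needs more TPM than a long one to reach a given count. A filter on counts thus raises the TPM of the short groups that it keeps. The 150 members were not filtered here, so the 2 TPM medians are not on equal terms. Of the 150 members 144 passed that filter, against 31870 of all 269971 contig groups. A mean under 1 TPM was found in 45 of the 150, and 13 reached 10 TPM. Across members, length and level were nearly unrelated (Spearman rho -0.05 for group TPM, n = 150 groups that share 6 libraries, a description only).

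The longest contig of all belonged to TRINITY_DN140774_c0_g1, whose 3 contigs include one of 41148 bases. This contig alone had 3485, 19358 and 5698 counts in the 15 °C libraries and 7092, 12774 and 6074 in the 20 °C libraries. Scaled for length and depth, the contig stood at 25.7, 34.4 and 57.5 TPM at 15 °C and at 29.8, 68.5 and 28.5 TPM at 20 °C. The highest library was 20 °C replicate 2 and the lowest 15 °C replicate 1, and the temperatures overlapped. The group took 17.4% to 30.6% of all member counts in a library, the largest share of any member over all 6 libraries together. The fitted log2 fold change for 20 °C against 15 °C, 0.09 (SE 0.39), did not pass edgeR's quasi-likelihood test (adjusted p = 1.00). Without 15 °C replicate 1 the value was -0.10, leaving out 15 °C replicate 2 gave -0.0047, and without 20 °C replicate 2 it was -0.30.

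The next 4 in length were far less abundant. TRINITY_DN140639_c1_g1 (21619 bases) had 66, 596 and 113 counts at 15 °C and 242, 212 and 126 at 20 °C. TRINITY_DN139852_c1_g1 (20553 bases) had 160, 588 and 169 counts at 15 °C and 245, 325 and 151 at 20 °C. TRINITY_DN140203_c1_g1 (20110 bases) had 53, 726 and 225 counts at 15 °C and 237, 305 and 205 at 20 °C. In each of these 3 groups the libraries of the temperatures overlapped after scaling for depth. Their log2 fold changes were 0.04, -0.21 and -0.11 in this order, with standard errors of 0.37, 0.34 and 0.57, and none passed the edgeR test (adjusted p = 1.00 for each). The first of these turned to -0.22 when 15 °C replicate 1 was left out, to -0.08 when 20 °C replicate 1 was, and to -0.05 when 20 °C replicate 2 was. The second stayed below 0 with any library left out, at -0.0093 without 20 °C replicate 3. The last was 0.48 without 15 °C replicate 3.

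TRINITY_DN136740_c0_g1, the fifth longest at 17824 bases, was more abundant. In CPM, counts scaled for depth with TMM factors, it stood at 113, 94.1 and 178 in the 15 °C libraries and at 219, 213 and 180 in the 20 °C libraries. All 3 values at 20 °C lay above those at 15 °C, by 178 against 180 CPM at the nearest. The fitted log2 fold change of 0.67 (SE 0.30) had a 95% confidence interval from -0.05 to 1.39 and did not pass (unadjusted p = 0.0639, adjusted p = 1.00, edgeR). On the TPM scale the temperatures overlapped, at 9.77, 13.1 and 30.8 TPM against 25.8, 19.8 and 17.9 TPM.

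**Figure D1:**
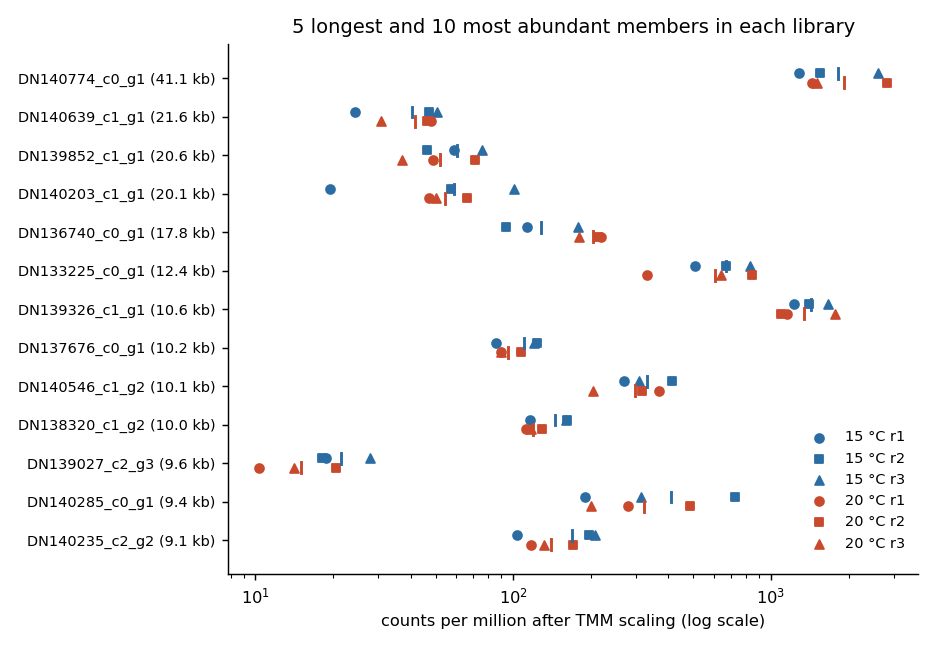
Depth-scaled level (CPM after TMM scaling, log scale) of the 5 longest and the 10 most abundant members, 13 contig groups in all, ordered by length; each symbol is a library and each vertical tick the mean of 3 libraries of a temperature. The 41148-base group lies between 1285 and 2819 CPM, and the temperatures overlap in all groups shown except TRINITY_DN136740_c0_g1.

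A high level of a contig group did not always mean a high level of its giant contig. By the mean TPM summed over the group, TRINITY_DN139326_c1_g1 came first with 933 TPM, at 775, 976 and 1182 TPM in the 15 °C libraries and 757, 836 and 1073 TPM in the 20 °C libraries. Of this, 99.0% was on a contig of 1420 bases, while the longest contig of the group, of 10593 bases, had a mean of 0.533 TPM, with 168 and 51 counts in 15 °C replicates 2 and 3 and 0, after rounding, in the other 4 libraries. Contigs of at least 50% of the longest length held 2.52% of the counts of that group, the lowest share of all members. In the 41148-base group, a contig of 258 bases held 0.695% of the counts and 62.1% of the TPM. A few counts on a contig of this size weigh heavily in TPM, since the effective length in the divisor is small.

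Over all 150 members, contigs of at least 50% of the longest length held a median of 98.0% of the counts, and more than 50% in 146 members. The longest contig itself held a median of 49.5% of the counts, more than 90% in 40 members and less than 10% in 34. Contigs under 1000 bases occurred in 66 members, and in 17 of these they held more than 50% of the summed TPM. The strongest such case among the 10 most abundant members was TRINITY_DN139027_c2_g3, with a longest contig of 9599 bases, where they held 95.9% of the TPM. Levels from the longest contig alone therefore gave another order. Of the 10 highest by summed TPM, 7 were among the 10 highest by the longest contig.

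By the longest contig alone, TRINITY_DN133225_c0_g1 came first. This group is a single contig of 12382 bases with a mean of 46.9 TPM, at 34.1, 50.4 and 62.6 TPM in the 15 °C libraries and 23.4, 69.7 and 41.3 TPM in the 20 °C libraries. The highest and the lowest library were both from 20 °C. The 41148-base contig followed with 40.7 TPM, then TRINITY_DN140285_c0_g1 (9425 bases) with 14.7 TPM, TRINITY_DN140546_c1_g2 (10137 bases) with 14.01 TPM, TRINITY_DN140235_c2_g2 (9120 bases) with 13.1 TPM and TRINITY_DN138320_c1_g2 (10005 bases) with 8.58 TPM. At 15 °C the SD between libraries was 16.4 TPM for the 41148-base contig and 14.3 TPM for the 12382-base contig (n = 3 each). Within libraries the 12382-base contig was the higher of these except in 20 °C replicate 1, at 23.4 against 29.8 TPM. Their difference was not tested. TRINITY_DN137676_c0_g1 (10196 bases), the tenth by summed TPM at 12.7 TPM, had only 1.24 TPM on its longest contig.

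**Figure D2:**
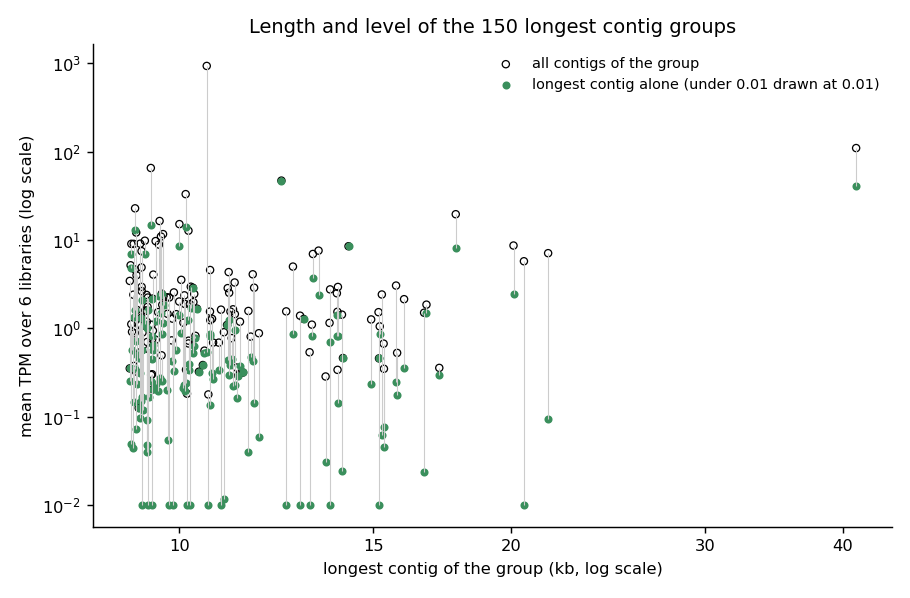
Longest contig of each of the 150 members (kilobases, log scale) against mean TPM over 6 libraries (log scale), for all contigs of the group (open circles) and for the longest contig alone (filled, under 0.01 TPM drawn at 0.01), joined by a line. The open circle at 933 TPM drops to 0.533 TPM when the longest contig stands alone, and the 41148-base member drops from 110 to 40.7 TPM.

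The giant groups were assembled in several versions. They held 731 contigs, with a median of 4 and at most 17 per group, and 16 of the 150 (10.7%) held a single contig. In the next 150 by length the median was 4 and 18.7% held a single contig, and among the tested groups 61.1% did. The most contigs were found in TRINITY_DN139244_c4_g1 with 17, TRINITY_DN134188_c0_g1 with 16 and TRINITY_DN140117_c1_g1 with 14. No component (a smaller division of the assembly that can hold several groups) held more than 1 member, and 4 read clusters held 2 members each, so nearly all members were separate in the assembly.

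The contig that carried the reads often differed from library to library. In TRINITY_DN140546_c1_g2, 2 contigs of 10137 and 10136 bases divided the reads. The first held 0.575% of the group's counts in 15 °C replicate 1, 44.6% in 15 °C replicate 2, 40.2% in 15 °C replicate 3, 38.9% in 20 °C replicate 1, 87.9% in 20 °C replicate 2 and 94.0% in 20 °C replicate 3. The other had 667, 2699 and 382 counts at 15 °C and 1073, 0 and 2 counts at 20 °C. It was nearly absent from 20 °C replicates 2 and 3 and present in 20 °C replicate 1, so the pattern crossed the temperatures. The summed group varied less, from 204 to 413 CPM. In TRINITY_DN140285_c0_g1, a contig of 9329 bases had 186, 5006 and 555 counts at 15 °C and 659, 1130 and 721 at 20 °C, and one of 9425 bases had 324, 4063 and 126 at 15 °C and 733, 1036 and 84 at 20 °C. The longer of these led in 15 °C replicate 1 and 20 °C replicate 1, so a 15 °C and a 20 °C library again went together. In TRINITY_DN134188_c0_g1, contigs of 12286 to 12874 bases shared the reads, and a contig of 12328 bases held 99.9% of the counts in 15 °C replicate 3 (18 counts) but 0.121% in 20 °C replicate 1, where a contig of 12286 bases held 62.2% (60 counts).

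Of the 150 members, 102 had at least 2 contigs of at least 50% of the longest length, and 65 of these had at least 10 counts on such contigs in every library. In 53 of the 65 (81.5%) the leading long contig was not the same in all 6 libraries, and in 25 more than 2 different contigs led. Among the next 150 by length this held for 46 of 58 (79.3%). Estimated counts divide reads between contigs that share sequence, and near-equal contigs can be alternative transcripts, alleles or assembly variants, which cannot be told apart here.

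Whether the mixture of contigs differed between temperatures was tested in 62 members with at least 2 tested contigs. In edgeR's diffSpliceDGE test with the Simes method, 0 of 62 members passed, with 0% of 3182 contig groups passing. At an unadjusted p under 0.05 there were 4 members, 6.45% of those tested, against 2.64% of all tested groups. With a library left out the number was 1 to 10 members. Leaving out 15 °C replicate 2 gave 1 of 68 (1.47%), against 4.47% of all groups then tested. Leaving out 15 °C replicate 3 gave 10 of 81 (12.3%) against 3.34%, and leaving out 20 °C replicate 2 gave 10 of 83 (12.05%) against 4.18%. With contigs of at least 10 counts on average it was 9 of 82 (10.98%) against 4.15%. The share among members thus lay below that of all groups in the first of these settings and above it in the others.

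The 4 members were TRINITY_DN139589_c1_g1, TRINITY_DN139856_c0_g1, TRINITY_DN140117_c1_g1 and TRINITY_DN137409_c0_g1, named after their values were seen. In TRINITY_DN139589_c1_g1, a contig of 12453 bases had 12, 101 and 31 counts at 15 °C and 0 in each 20 °C library, all rounded. A contig of 12456 bases from the same group had 9, 1 and 23 counts at 15 °C and 76, 57 and 59 at 20 °C. The temperatures did not overlap for either contig, and the group did not pass (unadjusted p = 0.00401, adjusted p = 0.607, Simes method). In TRINITY_DN139856_c0_g1 a contig of 9020 bases had 7, 100 and 10 counts at 15 °C and 0 in each 20 °C library (unadjusted p = 0.00665, adjusted p = 0.755, Simes method). With 0 at 20 °C, this contig and the 12453-base contig could pass the low-count filter only through the 15 °C libraries. The same held for an 11114-base contig of TRINITY_DN140117_c1_g1, with 18, 240 and 6 counts at 15 °C and 0 at 20 °C, rounded. A 9593-base contig of TRINITY_DN137409_c0_g1 had 0, 2 and 0 counts at 15 °C and 64, 42 and 66 at 20 °C. For it and the 12456-base contig, the 15 °C libraries alone could not have met the filter. The lack of overlap in all these contigs is tied to that filter and is no separate result. In each of the 4 members the contig with the smallest p was of this kind.

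**Figure D3:**
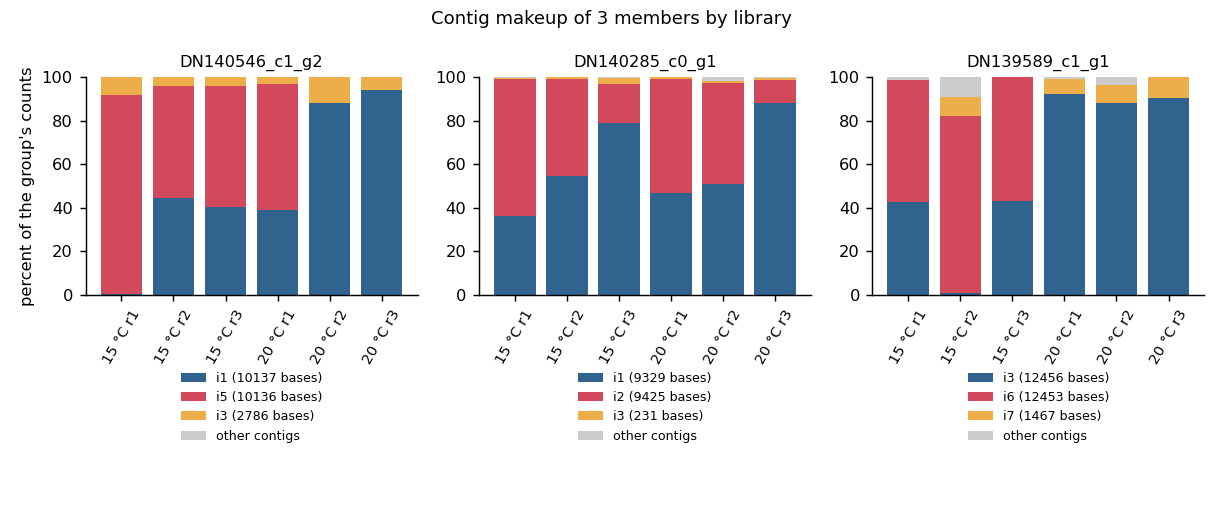
Percent of a group's estimated counts held by each of its 3 leading contigs and by all others, in each of the 6 libraries, for 3 members. In TRINITY_DN140546_c1_g2 the contig of 10137 bases runs from 0.575% to 94.0%, and in TRINITY_DN139589_c1_g1 the contig of 12453 bases is at 0 in the 20 °C libraries apart from traces under 1 count.

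By their median, giant groups were low in 3 libraries and high in the other 3, in a split that crossed the temperatures. For each tested group the log2 CPM in a library was set against its mean over the 6 libraries, and the median over members was taken less the median over all 31870 tested groups of that library. The low libraries were 15 °C replicate 1 at -0.38, 20 °C replicate 1 at -0.24 and 20 °C replicate 3 at -0.16. The high ones were 15 °C replicate 2 at 0.30, 15 °C replicate 3 at 0.26 and 20 °C replicate 2 at 0.08. The 15 °C libraries had a mean of 0.06 ± 0.38 and the 20 °C libraries one of -0.11 ± 0.17 (SD, n = 3 each), and the ranges overlapped.

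Counted by members, 15 °C replicate 1 was the lowest of the 6 libraries in 51 of 144 tested members (35.4%), against 21.9% of all tested groups. It was followed by 20 °C replicate 3 with 32 (22.2%, against 15.5% of all tested groups) and 20 °C replicate 1 with 29 (20.1% against 12.6%). The lowest library was 20 °C replicate 2 in 15 (10.4% against 12.5%), 15 °C replicate 3 in 13 (9.03% against 21.6%) and 15 °C replicate 2 in 4 (2.78% against 15.9%). The highest library was 15 °C replicate 2 in 45 members and 15 °C replicate 3 in 44, or 31.3% and 30.6%, against 17.3% and 16.7% of all tested groups. The split was thus shared by many members, though not by all, and was not carried by the 41148-base group. In 15 °C replicate 1, 20 °C replicate 1 and 20 °C replicate 3, 46, 62 and 63 of the 144 members lay above their own mean. In 15 °C replicates 2 and 3 and 20 °C replicate 2, 127, 97 and 96 did. Of all 31870 tested groups, 16674 to 18946 did, depending on the library. Without the 2 most abundant members by TPM, the remaining 148 took 0.332%, 0.584% and 0.508% of the counts in the 15 °C libraries and 0.372%, 0.588% and 0.325% in the 20 °C libraries.

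Among the tested groups, the median deviations of the libraries lay closer together in short contig groups than in long ones. They are medians over groups and do not measure the spread of single groups between libraries. In 15 °C replicate 1 the median deviation was 0.08 in tested groups with a longest contig from 500 to under 1000 bases, -0.05 from 2000 to under 4000 bases, -0.17 from 4000 to under 6000 bases, -0.27 from 6000 to under 9019 bases and -0.38 in the members. In 15 °C replicate 2 the same lengths gave -0.10, 0.11, 0.28, 0.30 and 0.30. They gave -0.03, 0.02, 0.05, 0.12 and 0.26 in 15 °C replicate 3 and 0.02, -0.01, -0.08, -0.12 and -0.24 in 20 °C replicate 1. In 20 °C replicates 2 and 3 the deviation did not grow up to the members, with 0.11 and -0.20 from 6000 to under 9019 bases against 0.08 and -0.16 in the members. Below 2000 bases the order also differed, and 20 °C replicate 1 went from -0.02 under 500 bases to 0.03 from 1000 to under 2000 bases. The next 150 groups by length had -0.34, 0.34, 0.10, -0.10, 0.18 and -0.25 in the 6 libraries, with 15 °C first, the same signs as the members. In 58 members with a mean of at least 100 counts the values were -0.33, 0.14, 0.21, -0.29, 0.06 and -0.19. For the longest contig alone, in 109 members, they were -0.64, 0.54, 0.10, -0.19, 0.27 and -0.23. Library totals were 2977166, 5310811 and 5070116 estimated counts in the 3 low libraries, 15 °C replicate 1 first, and 12954558, 2397973 and 4137455 in the 3 high ones, 15 °C replicate 2 first. The part of depth, or of any other technical or biological difference between the libraries, in this split was not tested. In a bulk sample fewer cells of a type and less RNA per cell also cannot be told apart.

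**Figure D4:**
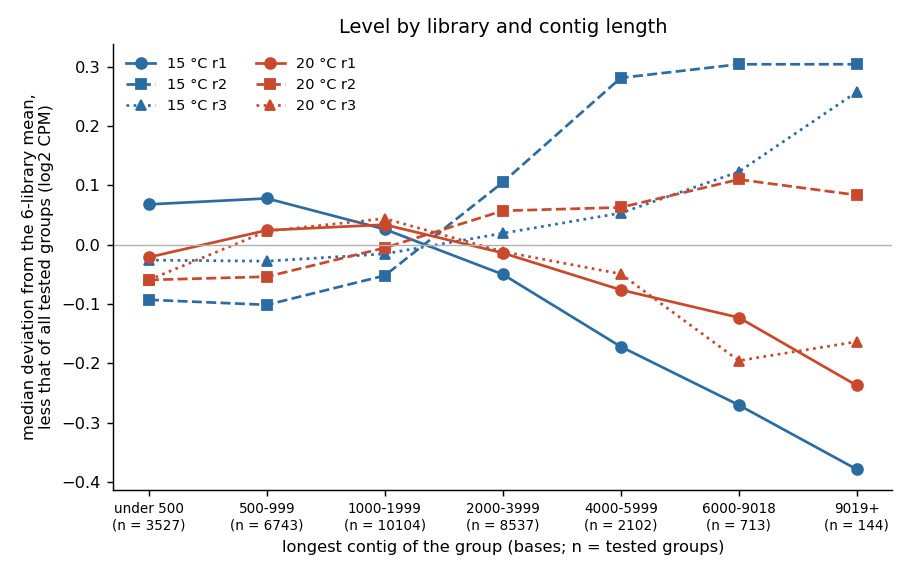
Median deviation of log2 CPM from the 6-library mean, less that of all tested groups, by longest contig of the group in bases; lines are libraries, colours temperatures, and n gives tested groups per length class. The lines lie between -0.10 and 0.08 below 2000 bases and spread to between -0.38 and 0.30 in the 144 tested members, with both temperatures on each side of 0.

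Beyond this shared split, members varied by library to different degrees. Of the 150, 144 passed the low-count filter, and 20 of all 150 had a count that rounded to 0 in at least 1 library, 10 of them in 15 °C replicate 1 and 8 in 15 °C replicate 3. A count of 0 allows up to 3 counts. Over the tested members the highest library was at a median of 4.12 times the TPM of the lowest, against 5.16 times in the next 150 and 4.58 times in all tested groups. A group with a library at 0 TPM counts here as the largest ratio, which held for 9.72%, 17.1% and 23.0% of these sets. Among groups with no library at 0 the medians were 3.35, 3.89 and 3.41, so members and all tested groups were close. The median biological coefficient of variation, edgeR's estimate of the spread between libraries beyond counting error, was 0.50 in the members, 0.51 in the next 150 and 0.56 in all tested groups. These differences were not tested. Across members the coefficient fell as the mean count rose (Spearman rho -0.63, n = 144 groups that share 6 libraries, a description only). Median counts were 80.0 in the members and 29.7 in all tested groups, and the part of counts in these differences was not tested either.

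By summed TPM the steadiest member was TRINITY_DN139624_c2_g1 (10302 bases). It stood at 2.13, 2.10 and 2.25 TPM in the 15 °C libraries and 1.61, 2.15 and 1.61 TPM in the 20 °C libraries. The ratio between the highest and the lowest was 1.40. A contig of 1887 bases held 59.7% of the TPM, and the contig of 10302 bases alone ran from 0.221 to 0.742 TPM. In CPM the group's 20 °C libraries lay below those of 15 °C, at 5.86 to 7.96 against 9.19 to 10.7. The group did not pass (edgeR, unadjusted p = 0.223, adjusted p = 1.00). TRINITY_DN139326_c1_g1, carried by its 1420-base contig, had a ratio of 1.56, and TRINITY_DN137676_c0_g1 had 1.59. At the other end were groups missing from a library. TRINITY_DN140458_c5_g1 (13692 bases) had no counts in 15 °C replicate 1 and 222 and 48 in 15 °C replicates 2 and 3, with 66, 124 and 24 at 20 °C. TRINITY_DN139758_c0_g1 (9743 bases) also had none in 15 °C replicate 1 and 7 to 144 elsewhere. TRINITY_DN135935_c0_g1 (11612 bases) had none in 15 °C replicate 3, 59 and 195 in the other 15 °C libraries and 26 to 51 at 20 °C. In each of these 3 groups the library at 0 was from 15 °C while at least 1 other 15 °C library was high, so the temperatures overlapped. In TRINITY_DN139758_c0_g1 this was 15 °C replicate 2 alone, with 144 counts, while 15 °C replicate 3 had 7. Over the 144 members, log2 CPM correlated at 0.74 to 0.88 for pairs of libraries within a temperature (mean 0.84) and at 0.80 to 0.88 between temperatures (mean 0.83). Members are not independent replicates, and these values describe the libraries.

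The design asks if a warm or cool incubation of the embryo can still be read in ventricle RNA of the juvenile, months after all animals came to share 1 temperature. No giant contig group passed the test for it. In edgeR's quasi-likelihood test, adjusted over all tested groups, 0 of 144 members had an adjusted p under 0.05, as did 0% of all 31870 tested groups. At an unadjusted p under 0.05 there were 5 members, or 3.47%, against 1.94% of all tested groups, of which 1 (background 0.96%) was higher at 20 °C and 4 (background 0.979%) were lower. Without 15 °C replicate 1 the number was 12 of 149 (8.05%), against 4.79% of all groups then tested, and without 20 °C replicate 1 it was 2 of 145 (1.38%) against 2.12%. DESeq2 called 0 members, with 6 (4.17%) at an unadjusted p under 0.05 against 2.75% of all groups. Limma on log2(TPM + 0.5) also called 0, with 1 (0.694%) at an unadjusted p under 0.05 against 3.50% of all groups. On log2(TPM + 0.05) limma called 0, with 0 at that threshold against 2.77% of all groups. The members' share thus lay above that of all groups in the edgeR fit of 6 libraries and with DESeq2, and below it with limma and without 20 °C replicate 1. For the longest contig alone, 0 of 89 members passed and 1 (1.12%) had an unadjusted p under 0.05, against 1.63% of the longest contigs of all groups tested (edgeR).

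In 13 of the 144 members (9.03%) every library of one temperature lay above every library of the other in CPM, against 9.14% of all tested groups. The higher temperature was 20 °C in 4 members and 15 °C in 9, against 4.97% and 4.17% of all tested groups, or 2.78% and 6.25% of the members. Fitted means were lower at 20 °C in 99 of 144 members, 68.8%, against 47.6% of all tested groups, and in 83 of 140 of the next longest. The median log2 fold change was -0.18 in the members, -0.10 in the next 150 and 0.03 in all tested groups. By length it was 0.07 from 1000 to under 2000 bases, -0.06 from 4000 to under 6000 bases and -0.11 from 6000 to under 9019 bases. Within the members the relation ran the other way, with a Spearman rho of 0.22 between length and log2 fold change (n = 144 groups that share 6 libraries, a description only), and the 100 longest had a median of -0.14. The members' median moved to -0.38 with 15 °C replicate 1 left out, to -0.36 with 20 °C replicate 2 left out and to -0.11 with 15 °C replicate 2 left out, so its size rested on single libraries. These values move with the split between libraries given above, whose part in them was not tested.

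The precision was limited. The 95% confidence interval of a member's fold change reached a median of 1.27 log2 units to either side. A 4-fold difference, up or down, lay outside the unadjusted interval in 93 of 144 members, and a 2-fold difference in 19.

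The 2 members with the smallest p in each direction were taken from those without overlap between the temperatures in CPM. TRINITY_DN136835_c1_g1 (9198 bases) had 11, 40 and 3 counts at 15 °C and 97, 29 and 39 at 20 °C, or 2.85 ± 1.38 CPM against 11.7 ± 6.77 CPM (SD, n = 3 each). The fitted difference was 2.01 log2 units (SE 0.64, edgeR, unadjusted p = 0.0173, adjusted p = 1.00). With 3 counts in 15 °C replicate 3, the 15 °C libraries alone could not have met the low-count filter. The group's test thus also needed its level at 20 °C. Its lack of overlap in CPM is tied to that filter and to the rule that named it. On the TPM scale the temperatures overlapped, with 1.31 TPM in 15 °C replicate 1 and 0.701 TPM in 20 °C replicate 2. They also overlapped for the contig of 9198 bases, with 0, 27 and 3 counts at 15 °C and 87, 29 and 0 at 20 °C. TRINITY_DN125865_c0_g1, a single contig of 15183 bases, had 8, 0 and 4 counts at 15 °C and 28, 82 and 74 at 20 °C. The 15 °C library at 0 was the deepest one, replicate 2. The 15 °C libraries alone could not have met the low-count filter, so the group was tested because of its level at 20 °C. Its lack of overlap is tied to that filter and to the rule that named it. The fitted difference was 3.29 log2 units (SE 1.37, edgeR, unadjusted p = 0.0508, adjusted p = 1.00), and without the low-count filter it passed (log2 fold change 3.46, adjusted p = 0.0358, edgeR). Over all 15 alternatives its adjusted p ran from 0.0358 to 1.00 and its log2 fold change from 1.11, with limma on log2(TPM + 0.5), to 4.55, without 15 °C replicate 1. Without 15 °C replicate 2 it was 2.53. The share of all groups that passed without the filter is not given here.

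In the other direction, TRINITY_DN137714_c0_g1 (9521 bases) stood at 6.98, 11.1 and 11.2 CPM at 15 °C and at 4.58, 3.92 and 2.93 CPM at 20 °C. The fitted difference was -1.35 log2 units (SE 0.44, edgeR, unadjusted p = 0.0194, adjusted p = 1.00). TRINITY_DN137648_c0_g1 (10711 bases) stood at 12.5, 21.6 and 17.0 CPM at 15 °C and at 7.76, 5.44 and 9.28 CPM at 20 °C, a fitted difference of -1.19 log2 units (SE 0.40, edgeR, unadjusted p = 0.0217, adjusted p = 1.00). In both summed groups, 20 °C libraries lay wholly below those of 15 °C, as the rule that named them required, and neither passed the test. For their longest contigs alone the temperatures overlapped. The 9521-base contig had 0, 141 and 2 counts at 15 °C and 11, 0 and 0 at 20 °C. The 10711-base contig had 0, 166 and 0 counts at 15 °C and 0, 0 and 38 at 20 °C, all rounded. Among the 13 most abundant and longest members named above, the temperatures were separate in CPM in TRINITY_DN136740_c0_g1 alone.

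**Figure D5:**
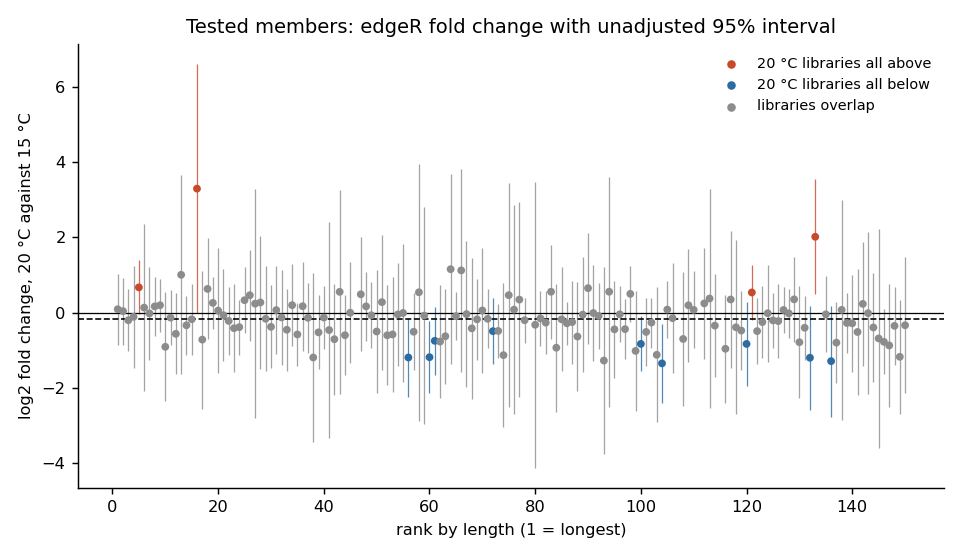
Log2 fold change of 20 °C against 15 °C (edgeR) for the 144 tested members by rank of length, with the unadjusted 95% confidence interval; colour marks members whose 20 °C libraries lie all above (4) or all below (9) those of 15 °C. The dashed line is the members' median of -0.18, and none of the members passed with adjustment.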

How the data were processed

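Ventricle RNA of 6 libraries was analysed, 3 per embryonic temperature, grouped by the sample titles. Reads were trimmed with Trimmomatic and quantified with kallisto, per the submitters' processing notes. Their versions and options, like the assembly and its annotation, were not given in the sources used here. Per the file headers, the authors deposited the estimated count, TPM, length and effective length of 347710 contigs per library. The estimated counts are not normalised, and the deposited TPM sums to a fixed total in each library. In 2 libraries the count of 1 abundant contig, not of a member, was deposited with 3 digits.

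A contig group is the contig name without its last number. Members are the 150 groups with the largest length value. Counts and TPM were summed per group and counts rounded. The 31870 groups kept by filterByExpr (about 10 counts in at least 3 libraries, total of at least 15) held 93.5% to 95.2% of each library's counts. Members were tested within a fit of all these groups by edgeR 4.0.16 (TMM, robust quasi-likelihood, R 4.3.3), with no term but temperature, and Benjamini-Hochberg adjustment. Contig shares were tested with diffSpliceDGE on the 3182 groups with at least 2 tested contigs. Standard errors are the log2 fold change over the root of F. CPM deviations used log2(CPM + 0.5). Simulated counts were also run through the code. Their settings and outcome are not given here, so no conclusion on power or error at the spread of these libraries is drawn from them. DESeq2 1.42.0 and limma 3.58.1 were alternatives. In the RefSeq table of assembly sScyCan1.1, with 29227 genes, 0 contig names were found.

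Members, lists and tests were chosen with earlier results of these data known. Contig groups named were, by rule, the 5 longest, the 10 with the highest mean TPM, of the members without overlap up to 2 higher and 2 lower by smallest p, the 3 with the largest and the 3 with the smallest ratio between libraries, the 3 with the most contigs, and those at the length limit.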

Additional observations from a re-analysis of the deposited data

How the results depend on the processing

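The number of members past the test stayed at 0 in 16 of 17 alternatives and was 1 without the low-count filter. The share of all groups that passed in that fit is not given here, so this 1 call has no background beside it. The number at an unadjusted p under 0.05, which was 5, was 0 with limma on log2(TPM + 0.05) (background 2.77%). Limma on log2(TPM + 0.5) gave 1 (0.694%, background 3.50%) and the longest contig alone 1 (1.12%, background 1.63%). Without the filter it was 8 (5.33%, background 3.17%), and with the offset for effective length 7 (4.86%, background 1.97%). The 100 longest groups held 3 (3.06%), against 1.94% of all groups in the fit of 6 libraries. With a library left out it was 2 to 12, with the shares for these 2 ends given above. With the replicate number as a block it was 2 (1.39%, background 1.48%). Deviations of same-numbered libraries correlated at 0.08, 0.19 and -0.02, and the labels tie the numbers to nothing, so they were not treated as pairs. With the block, 0 members passed for contig groups or contig shares. The median ratio of the highest to the lowest library, 4.12, was 3.75 with CPM, 2.44 with TPM + 0.5, 3.76 in the 100 and 4.43 in the 200 longest groups, and 3.12 to 3.76 with a library left out, where fewer libraries can only lower it. The log2 fold change of TRINITY_DN140774_c0_g1 lay between -0.30 and 0.43 with a library left out, that of TRINITY_DN140639_c1_g1 from -0.22 to 0.22 and that of TRINITY_DN140203_c1_g1 from -0.53 to 0.48. TRINITY_DN140639_c1_g1 turned to -0.70 with the offset for effective length, -0.72 with limma on log2(TPM + 0.05) and -0.67 on log2(TPM + 0.5). TRINITY_DN140203_c1_g1 turned to 0.15 and 0.13 on these limma scales and to 0.16 with the replicate block. The cause was not tested. The median log2 fold change ranged from -0.38 to -0.11 over 14 alternatives and stayed below 0, and the TPM share difference moved by less than 1 SD in all 12. Deviations recomputed on well-counted members or longest contigs were chosen after the data were seen, as was the share of contigs at least as long as the shortest member (-0.00521 percentage points). Few counts limit the precision of many members: 39 of 150 had under 10 counts in 15 °C replicate 1, 29 in 15 °C replicate 3 and 1 in 15 °C replicate 2, with totals of 2977166, 2397973 and 12954558, and 6 members were not tested.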
